A study of Homo sapiens with 118 samples.

Results

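Transcripts of 8 regulators of RNA processing, namely A1CF, RBM47, ESRP1, ESRP2, QKI, MBNL1, CELF2 and SAFB, were followed in HepaRG cells treated with histone deacetylase inhibitors. The 8 genes were chosen by name: A1CF was selected on its own fall in these data, and the other 7 are RNA-binding or splicing regulators set beside it. Each gene had 1 row, that is 1 pair of detector probes, among the 22068 rows with a value in every library, so 8 of 22068 rows were members. Because the fall of A1CF was the reason for its choice, its values are given as a description with no test, and tests were run for the other 7, which are called comparators below.

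HepaRG is a human hepatoma-derived line that differentiates into hepatocyte-like and biliary-like cells, and it was used in its differentiated state. Cells were given 1 of 8 inhibitors every day for 72 hours at 5 concentrations, C1 (lowest) to C5 (highest), and lysates were profiled by TempO-Seq, in which probe pairs that anneal side by side on a transcript are ligated, amplified and sequenced. There were 118 libraries in 40 groups, with 3 libraries in 38 groups and 2 in the C3 group of panobinostat and the C4 group of trichostatin A; replicates 1, 2 and 3 of a group came from 3 batches of HepaRG cells. Solvent-control libraries were not analysed here, so C1 of the same chemical was the reference in every comparison, and a response already present at C1 would not be seen.

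From C1 to C5 the labelled concentrations ran from 0.041722 to 0.86 µM for apicidin, a cyclic tetrapeptide. They ran from 0.177222 to 3.9 µM for mocetinostat and from 1.14333 to 44 µM for tacedinaline, both benzamides. Among the hydroxamic acids they ran from 0.001468 to 0.084 µM for panobinostat, from 4.94 to 94.5 µM for scriptaid, from 0.018811 to 1.5237 µM for trichostatin A and from 0.404778 to 23.5 µM for vorinostat. For valproic acid, a branched short-chain fatty acid, the labels and the treatment protocol differed by a constant factor in the same unit, so its concentrations are given only as C1 to C5. The concentrations were not matched between chemicals, and their values are therefore set side by side without ranking potency.

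A1CF is the RNA-binding cofactor that positions the cytidine deaminase APOBEC1 on apolipoprotein B mRNA, and it also acts on splicing and mRNA levels in liver and kidney. RBM47 is a related RNA-binding protein that can serve as an APOBEC1 cofactor. ESRP1 and ESRP2 are epithelial splicing regulators, of which ESRP2 is the form associated with mature hepatocytes. QKI, MBNL1 and CELF2 bind short motifs in pre-mRNA and set developmental splicing programs, and MBNL and CELF proteins often act on the same exons in opposite directions. SAFB binds both RNA and scaffold-attachment DNA and is broadly expressed. Histone deacetylase inhibitors raise histone acetylation, and in hepatocyte cultures they are used both to preserve and to alter differentiation.

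The total count per library was 1061359 to 5250260 (median 3702007), and the median total was 4072872 at C1 and 3380497 at C5. Levels are given as counts-per-million values (CPM) after TMM scaling, which adjusts library sizes for differences in composition. The 3 vorinostat C5 libraries were shallow, with 1061359 to 1879287 counts. Among the 118 libraries, 7 stood apart, with a Pearson r of log2 CPM below 0.9 with both group mates, and only replicate 3 of trichostatin A at C1 lay in a C1 or C5 group. In bulk lysates, fewer cells of a type and less RNA per cell cannot be told apart. The liver identity of the cultures was seen in their defining markers: the summed level of 14 rows for 12 hepatocyte genes (ALB, TTR, APOA1 and others) was 41910 to 64238 CPM at C1 as group means.

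Promoter sequence is shown for A1CF and, since its base composition is unlike that of A1CF, for SAFB. Any relation of CpG content to the changes described below was not tested. The 250 bases before the RefSeq start of each gene (GRCh38.p14, read 5′ to 3′ along the gene) are given in lower case, with each CpG, the letters CG, which read the same on both strands, in capitals. A1CF lies on chromosome 10 from 50799409 to 50885627, on the minus strand, and SAFB lies on chromosome 19 from 5623083 to 5668478, on the plus strand.
A1CF, chr10:50885628-50885877: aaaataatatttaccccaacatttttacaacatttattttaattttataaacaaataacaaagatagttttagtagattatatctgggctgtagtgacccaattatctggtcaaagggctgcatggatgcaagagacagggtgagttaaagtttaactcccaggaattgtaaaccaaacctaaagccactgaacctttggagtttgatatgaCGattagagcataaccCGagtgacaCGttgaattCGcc
SAFB, chr19:5622833-5623082: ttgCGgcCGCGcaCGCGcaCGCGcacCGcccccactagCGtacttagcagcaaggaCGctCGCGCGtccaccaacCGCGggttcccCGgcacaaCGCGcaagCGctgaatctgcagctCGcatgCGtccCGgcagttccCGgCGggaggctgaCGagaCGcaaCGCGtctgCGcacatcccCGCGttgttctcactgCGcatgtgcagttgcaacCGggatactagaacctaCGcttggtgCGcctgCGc
The A1CF window held 4 CpG at a GC content of 35.6%, and 34.3% of the 35116 windows of this length in the RefSeq table held as many or fewer. The SAFB window held 36 CpG at 67.2% GC, and 96.0% of windows held as many or fewer. At least 1 CpG was present in 93.9% of the windows, with a median of 11. Windows were also listed for RBM47 (4 of them, with 4 to 11 CpG), MBNL1 (3, with 4 to 30) and CELF2 (10, with 4 to 44).

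A1CF transcripts were lost almost completely at the highest concentration of 3 chemicals and were little altered by 1. The 3 values of a group are those of replicates 1, 2 and 3. Vorinostat C1 libraries had 216, 214 and 179.6 CPM, and those at C5 had 4.90, 0 and 1.18 CPM, which were 6, 0 and 2 counts. Tacedinaline went from 221, 193 and 165 CPM to 1.48, 1.37 and 2.03 CPM (3 to 5 counts). Mocetinostat went from 199.5, 195 and 189 CPM to 2.32, 2.31 and 3.63 CPM (9 to 12 counts). In all 3, the highest C5 library lay far below the lowest C1 library. Scriptaid went from 255, 229 and 242 CPM to 13.4, 7.38 and 6.20 CPM.

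The other 4 chemicals left more A1CF transcript. Apicidin lowered it from 224, 218 and 215 CPM to 34.5, 33.5 and 57.7 CPM. Valproic acid libraries had 193, 165 and 197 CPM at C1 and 86.6, 83.4 and 98.7 CPM at C5, and panobinostat libraries had 180.3, 189.7 and 187 CPM at C1 and 111, 96.0 and 89.6 CPM at C5. The C5 libraries of all 7 chemicals named so far lay below every C1 library of the same chemical. Trichostatin A was the exception, its groups overlapping, with 208, 196 and 69.5 CPM at C1 and 152, 154 and 200.1 CPM at C5. Its lowest C1 value came from the library that stood apart, and its log2 change of 0.11 became -0.25 without that library. The share of all features whose C5 and C1 libraries do not overlap was not counted, here or below.

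**Figure D1:**
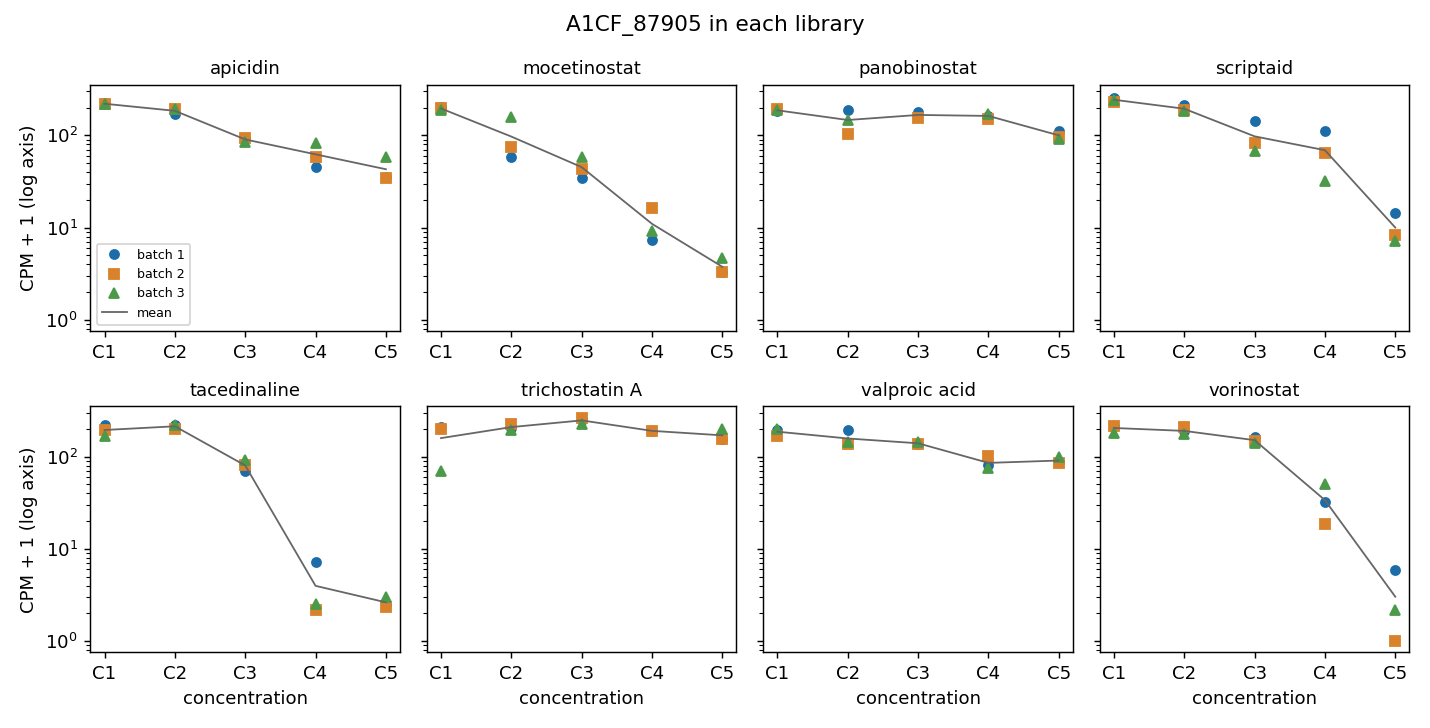
A1CF level (CPM + 1, log axis) against concentration C1 to C5 in 8 panels, one per chemical; each symbol is 1 library, its shape and color give the HepaRG batch, and the line joins group means. The C5 libraries of mocetinostat, tacedinaline and vorinostat sit at or below 4.90 CPM, while those of trichostatin A sit at 152 to 200.1 CPM, in the range of C1.

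As fitted by edgeR, the log2 change of A1CF from C1 to C5 was -6.83 for vorinostat, -6.78 for tacedinaline, -6.05 for mocetinostat, -4.68 for scriptaid, -2.37 for apicidin, -1.04 for valproic acid, -0.92 for panobinostat and 0.11 for trichostatin A. With so few counts left, the first values depend on single reads. Taken batch by batch (CPM plus a pseudocount of 0.5), the change of vorinostat spanned -8.75 to -5.32, that of tacedinaline -6.81 to -6.03 and that of mocetinostat -6.15 to -5.52, and these 3 ranges overlapped. Scriptaid (-5.18 to -4.20) lay above all 3, and apicidin (-2.68 to -1.89) above scriptaid. The ranges of valproic acid (-1.15 to -0.98) and panobinostat (-1.06 to -0.70) overlapped. Among all features tested in each chemical, the share that fell further than A1CF was 0.401% for tacedinaline, 0.585% for vorinostat, 0.742% for mocetinostat, 1.60% for scriptaid, 4.05% for apicidin, 7.26% for valproic acid and 12.5% for panobinostat.

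The course from C1 to C5 differed between chemicals, but the steps between concentrations were uneven. The labels at C3 and C4 were 10.29 and 30.87 µM for tacedinaline. They were 44.46 and 60 µM for scriptaid, and 0.3755 and 0.5 µM for apicidin. For valproic acid, C4 and C5 lay close together. The part of step size in these courses was not tested. Mocetinostat and apicidin lowered A1CF stepwise, with log2 changes from C1 of -0.97, -2.11 and -4.22 at C2, C3 and C4 for mocetinostat and of -0.27, -1.29 and -1.83 for apicidin. Tacedinaline was level at C2 (0.14), had fallen at C3 (-1.26) and reached nearly its full change at C4 (-6.11). Its libraries had 67.9, 79.1 and 90.3 CPM at C3 and 6.21, 1.20 and 1.498 CPM at C4, so the step between adjacent concentrations separated all 3 batches. In mocetinostat at C2 the batches were spread, with 57.7, 74.5 and 156 CPM, and the highest value came from a library that stood apart. Vorinostat was close to C1 at C2 (-0.11) and C3 (-0.41), then -2.58 at C4, with 30.9, 17.4 and 49.8 CPM. Scriptaid gave -0.32, -1.32 and -1.78, so that most of its change lay between C4 and C5. For panobinostat the values at C2 to C4 were between -0.36 and -0.19, and for valproic acid they were -0.25, -0.43 and -1.12, the last no smaller in size than at C5.

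Hepatocyte markers moved in the same libraries. A row was called rising or falling, here and below, where its edgeR quasi-likelihood adjusted p was under 0.05, by Benjamini-Hochberg over all features of the chemical, and its change was at least 1.5-fold. The summed level of the 14 marker rows was 4144 CPM for tacedinaline C5, 5649 CPM for vorinostat C5, 7460 CPM for scriptaid C5 and 9264 CPM for mocetinostat C5 as group means, but 42958 CPM for trichostatin A C5. Over 112 tests at C5 (14 rows in 8 chemicals), 92 marker tests were called falling and 0 rising by edgeR (0 rising also by DESeq2 and at an unadjusted p under 0.05), beside 13.4% falling and 11.6% rising over all features tested in the 8 chemicals. The rows with the most chemicals called and the steepest fall were both rows of CYP3A4, a drug-metabolizing cytochrome P450 (medians -5.93 and -5.66), and ASGR1, a hepatocyte lectin receptor (-4.63), each called in 7 chemicals. The C1 library of trichostatin A that stood apart in A1CF also had the lowest summed level among C1 libraries, 13695 CPM. The part of a general loss of hepatocyte transcripts in the A1CF values was not tested.

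The transcript on which A1CF positions APOBEC1 moved alongside it. APOB, which encodes apolipoprotein B, was called falling at C5 in 7 of 8 chemicals. Its group means ranged from 2738 to 6224 CPM at C1 and from 75.0 to 2749 CPM at C5, and its log2 change had a median of -2.67 over the 8 chemicals (-5.36 to 0.02). APOB is itself a hepatocyte transcript, and the assay counts transcripts without reading the edited base, so editing was not measured.

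The 5 rows whose pattern was most like that of A1CF, by Pearson r of log2 CPM over the 40 group means among 15631 other features, were MIA2 (0.98), ANXA13 (0.98), BLNK (0.97), FAM47E-STBD1 (0.97) and CPB2 (0.97). CPB2 encodes a liver-made procarboxypeptidase of the clotting system, MIA2 an endoplasmic reticulum exit protein, ANXA13 an epithelial annexin and BLNK a signaling adaptor. Their median log2 change at C5 over the chemicals was -2.74 for MIA2, -3.56 for ANXA13, -3.94 for BLNK, -1.19 for FAM47E-STBD1 and -3.03 for CPB2. Among the comparators, r with A1CF was 0.64 for MBNL1, 0.63 for RBM47, 0.44 for CELF2, 0.44 for QKI, 0.28 for ESRP2, -0.06 for ESRP1 and -0.22 for SAFB. These correlations are descriptive: the group means share libraries, depth and the common response to concentration.

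RBM47, ESRP1, ESRP2 and CELF2 were near the limit of detection. RBM47, the alternative editing cofactor, had 0 counts in 46 of 118 libraries and at most 14. ESRP1 had 0 counts in 100 libraries and at most 21, the highest being the trichostatin A C1 library that stood apart. ESRP2 had 0 counts in 61 libraries and at most 10. CELF2 had 0 counts in 36 libraries and at most 18. RBM47, ESRP1 and ESRP2 passed the filter on low counts in 0 of 8 chemicals. CELF2 passed in panobinostat, trichostatin A and valproic acid, and was not called there. A count of 0 is compatible with up to 3 counts in that library, which covers counting error only, so a difference between libraries with so few counts is poorly resolved. CELF2 in trichostatin A had 8, 7 and 13 counts at C1 and 1, 3 and 0 counts at C5, which do not overlap, and its log2 change was -2.71 (SE 1.31, edgeR adjusted p = 0.523); the highest C1 value came from the library that stood apart. Its log2 change was 0.65 (SE 1.20) in panobinostat and 0.24 (SE 1.11) in valproic acid.

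Epithelial markers put the low ESRP rows in context. KRT8, a keratin of simple epithelia, was measured in every library (median 335 CPM), whereas the epithelial transcription factor GRHL2 was at 0 in 115 libraries and the biliary surface marker EPCAM at 0 in 113. With counts and totals summed over the 24 libraries of a concentration, without TMM scaling, RBM47 had 0.683 CPM at C1 and 0.551 CPM at C5, with 4 and 17 libraries at 0. ESRP2 had 0.555 and 0.296 CPM, and CELF2 had 1.12 and 0.739 CPM. Depth was lower at C5, as given above, and its part in the libraries at 0 was not tested. RBM47 had 0 counts in all 3 C5 libraries of scriptaid, against 1, 11 and 1 at C1, in all 3 of tacedinaline, against 0, 6 and 3 at C1, and in all 3 of vorinostat, against 2, 4 and 1 at C1. Its summed count went the other way in trichostatin A, from 2 at C1 to 14 at C5, all in replicate 1, and in valproic acid, from 7 to 13.

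MBNL1, which promotes adult splicing patterns and is sequestered by repeat RNA in myotonic dystrophy, was called falling at C5 in 3 chemicals. It was well covered, with 280 to 2246 counts per library. Mocetinostat libraries had 285, 408 and 295 CPM at C1 and 145, 161 and 144 CPM at C5. Scriptaid libraries had 339.9, 373 and 579 CPM at C1 and 195, 169 and 163 CPM at C5. Tacedinaline libraries had 402, 480.4 and 353 CPM at C1 and 159.8, 190.3 and 186 CPM at C5. In each of these chemicals every C5 library lay below every C1 library. The share of all features separated in this way was not counted, so nothing is read from the separation. The fitted log2 change was -1.05 (SE 0.33, edgeR adjusted p = 0.0230) for mocetinostat, -1.22 (SE 0.27, edgeR adjusted p = 0.00186) for scriptaid and -1.13 (SE 0.14, edgeR adjusted p = 4.34e-09) for tacedinaline.

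MBNL1 was not called in the other 5 chemicals. Vorinostat, among the chemicals with the steepest A1CF fall, had 341, 426 and 439 CPM of MBNL1 at C1 and 229, 301 and 322 CPM at C5. Here too every C5 library lay below every C1 library, from which nothing is read either. The change was negative in all 3 batches (-0.58 to -0.45). The fitted log2 change of -0.39 had an edgeR adjusted p of 0.0299 but did not reach 1.5-fold and was not called. Trichostatin A had 341, 481 and 579 CPM at C1 and 372, 441 and 430.2 CPM at C5, which overlap. The 95% interval of the log2 change was -0.39 to 0.73 for apicidin, -0.22 to 0.53 for panobinostat, -0.60 to 0.28 for trichostatin A and -0.31 to 0.67 for valproic acid. At C2 to C4, the MBNL1 change of tacedinaline C4 had an adjusted p under 0.05 (log2 change -0.55, edgeR adjusted p = 0.000966), which also did not reach 1.5-fold. Mocetinostat at C2 had a log2 change of -0.55 (edgeR adjusted p = 0.354), which became -1.05 (edgeR adjusted p = 0.000724) and was called without the libraries that stood apart. A test that the C5 changes of the 8 chemicals were equal, with 7 degrees of freedom in 1 edgeR fit of all 118 libraries, gave an adjusted p of 2.78e-05 for MBNL1. Changes that differed among chemicals were common, called for 30.3% of the 15632 features in that fit.

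**Figure D2:**
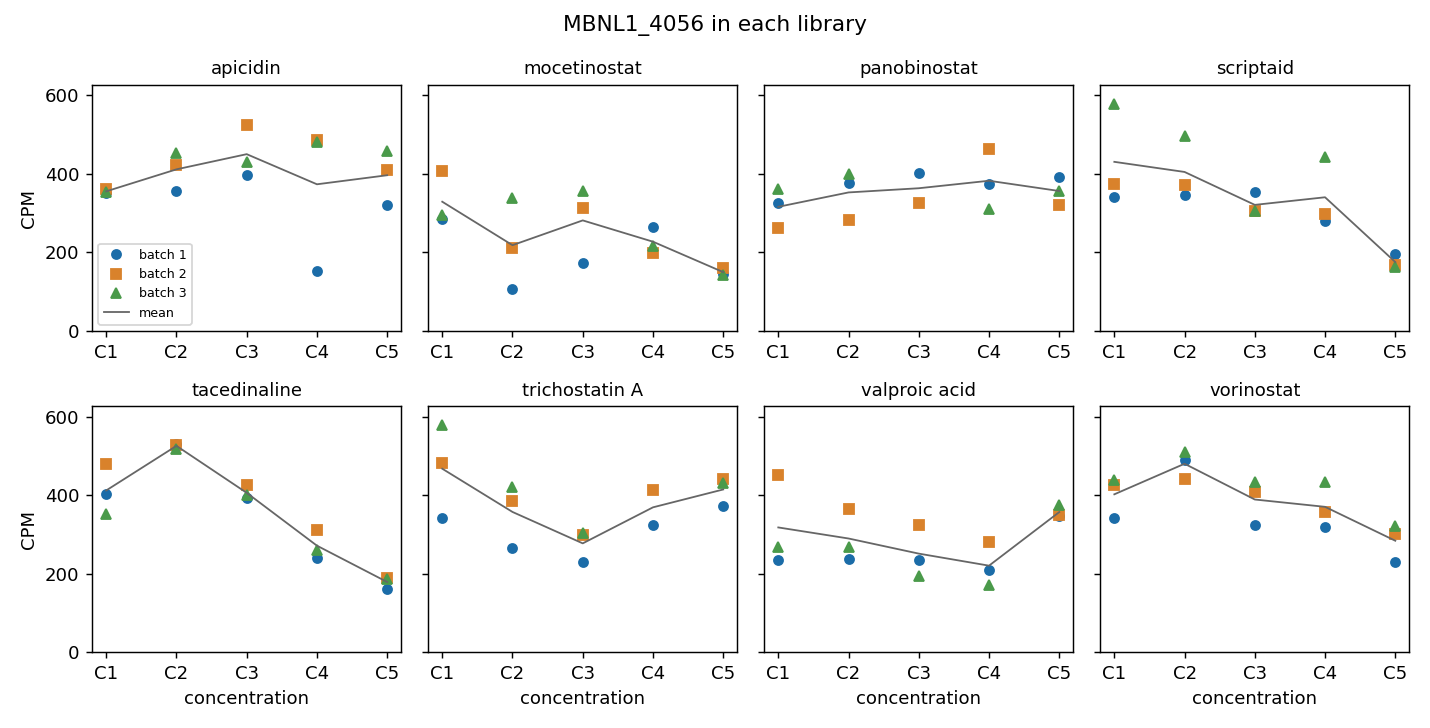
MBNL1 level (CPM, linear axis from 0) against concentration in 8 panels, one per chemical; symbols are single libraries by HepaRG batch and the line joins group means. At C5 the libraries of mocetinostat, scriptaid and tacedinaline sit at 144 to 195 CPM, and those of vorinostat at 229 to 322 CPM. All of these lie below every C1 library of the same chemical, while those of apicidin, panobinostat, trichostatin A and valproic acid overlap C1. The share of all features separated in this way was not counted.

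Leaving out replicate 2 ended the MBNL1 call in mocetinostat (log2 change -0.92, edgeR adjusted p = 0.249) and in scriptaid (-1.29, edgeR adjusted p = 0.0609). Scaling by library totals alone also ended it in mocetinostat (-0.86, edgeR adjusted p = 0.0677). The tacedinaline call held in every alternative run, with log2 changes from -1.28 to -0.93.

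QKI, a regulator of splicing, mRNA stability and circular RNA formation, was sparse, with a median of 30 counts per library. Scriptaid libraries had 15.5, 11.5 and 10.2 CPM at C1 (35 to 50 counts) and 4.20, 1.70 and 1.43 CPM at C5 (3 to 10 counts), so the groups did not overlap. The log2 change was -2.27 (SE 0.80, edgeR adjusted p = 0.0385). The call was lost without replicate 1 (-2.70, edgeR adjusted p = 0.141), without replicate 2 (-2.09, edgeR adjusted p = 0.278) and with library totals (-2.12, edgeR adjusted p = 0.0672). The C5 libraries also lay below those of C1 in mocetinostat and vorinostat, and above them in panobinostat (up to 8.97 CPM at C1, from 9.70 CPM at C5). Nothing is read from these separations, since their share over all features was not counted. In the other 7 chemicals QKI was not called, with log2 changes from -0.90 (mocetinostat) to 0.71 (trichostatin A). Tacedinaline libraries were scattered, with 2.53, 8.29 and 11.5 CPM at C1 and 9.40, 1.37 and 2.44 CPM at C5, and the log2 change of -0.84 became -2.31 without replicate 1, which was then called (edgeR adjusted p = 0.00741). There were 17 libraries with at most 7 QKI counts, of which 5 were among the 7 libraries that stood apart. The QKI changes were not called as different among chemicals (edgeR adjusted p = 0.138), but they were called without those 7 libraries (edgeR adjusted p = 0.00925).

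Median SAFB levels lay close together at C1 and C5. Over the 118 libraries it had 217 to 1329 counts and a median of 232 CPM, and the median was 230.0 CPM over C1 libraries and 250.2 CPM over C5 libraries. It was called rising at C5 in mocetinostat, where libraries had 146, 212 and 193 CPM at C1 and 267, 249.0 and 272 CPM at C5 without overlap (log2 change 0.60, SE 0.20, edgeR adjusted p = 0.0345). The estimate lay close to the fold threshold. The C1 library at 146 CPM came from well column 6 of plate H. SAFB had a median of 170 CPM in that column and 241 CPM in the other columns of the plate. The call was lost with DESeq2 size factors in edgeR (0.54), in DESeq2 (0.54), without a filter (0.52), in the fit of all libraries (0.52), without the libraries that stood apart (0.54) and without any 1 replicate (0.39 to 0.75, edgeR adjusted p from 0.0929 to 0.307). In the other chemicals in which SAFB was tested at C5, the log2 change was between -0.20 and 0.24 and was not called. SAFB in vorinostat was described only, since its value at C2 was known from earlier work on these data, and its change at C5 was 0.30.

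**Figure D3:**
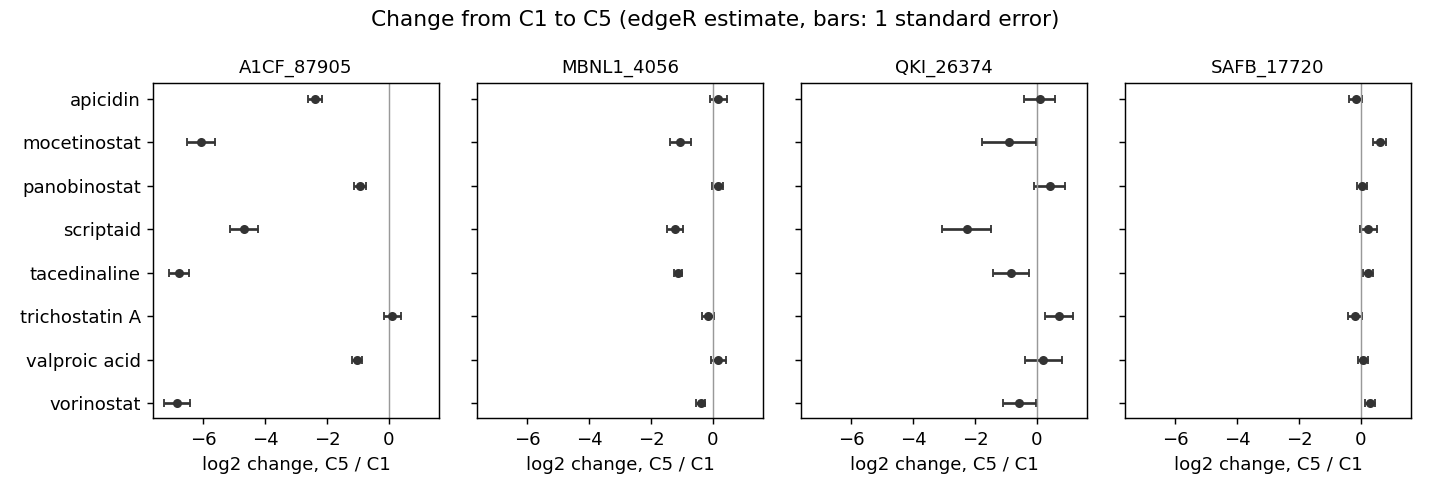
Log2 change from C1 to C5 (x axis) with 1 standard error for A1CF, MBNL1, QKI and SAFB in each of the 8 chemicals (rows). A1CF spans -6.83 to 0.11 and is shown without a test, whereas MBNL1 spans -1.22 to 0.18 and SAFB -0.20 to 0.60.

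At C5 the calls of comparators are set beside those of all features. In mocetinostat, 1 of 3 comparators tested fell and 1 rose, beside 15.7% falling and 14.8% rising among 13065 features. In scriptaid 2 of 3 fell and 0 rose, beside 17% and 12.8%. In tacedinaline 1 of 3 fell and 0 rose, beside 20.1% and 18.7%. In the other 5 chemicals 0 comparators were called by edgeR or by DESeq2. Of the 3 tested in apicidin, 0 had an unadjusted p under 0.05, beside 15% falling and 13.8% rising. Of the 4 in panobinostat, 0 did, beside 9.46% and 6.77%. Of the 4 in valproic acid, 0 did, beside 6.22% and 4.84%. Of the 2 in vorinostat, 1 did (MBNL1), beside 24.9% and 22.7%. Of the 4 in trichostatin A, 0 did, beside 0.0154% falling and 0% rising among 12993 features by edgeR; 574 and 681 features had an unadjusted p under 0.05 there, and DESeq2 called 22 and 15. With 2 to 4 genes tested per chemical, nothing is read from these shares about the members.

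Over C2, C3 and C4 together, 7.35% of contrasts over all features were called. With 2 to 4 comparators tested per chemical, 1 comparator contrast was called, and nothing is read from this count. It was SAFB at C2 of tacedinaline. SAFB there had 204, 106 and 102 CPM against 247, 227 and 219.8 CPM at C1, for which edgeR gave -0.75 as the log2 change (SE 0.17) at an adjusted p of 0.0261, where 0.0883% of 12461 features were called falling. Vorinostat C2 had 109, 113 and 130.0 CPM, against 199.97, 224 and 275 CPM at C1, a described log2 change of -0.998. At C3 of the same chemicals SAFB was at 212 to 224 CPM for tacedinaline and 212 to 299 CPM for vorinostat.

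The low SAFB libraries shared a place on the plate. The 5 lowest SAFB values of all 118 libraries (102 to 130.0 CPM) were the 5 libraries in well column 12 of plate E, which are replicates 2 and 3 of tacedinaline C2 and all 3 replicates of vorinostat C2. Replicate 1 of tacedinaline C2, in well column 2, had 204 CPM, and the 40 libraries in other columns of plate E had 176 to 414 CPM. On plate H, the 7 libraries of column 12 had 252 to 307 CPM, and the lowest values were in column 6 (6 libraries, 146 to 218 CPM), among them the mocetinostat C1 library at 146 CPM. For vorinostat C2, concentration and column cannot be told apart. The part of the column in the tacedinaline C2 call and in the mocetinostat C5 call was not tested. Without replicate 2 or without replicate 3 the tacedinaline call was lost (log2 change -0.61 in both).

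**Figure D4:**
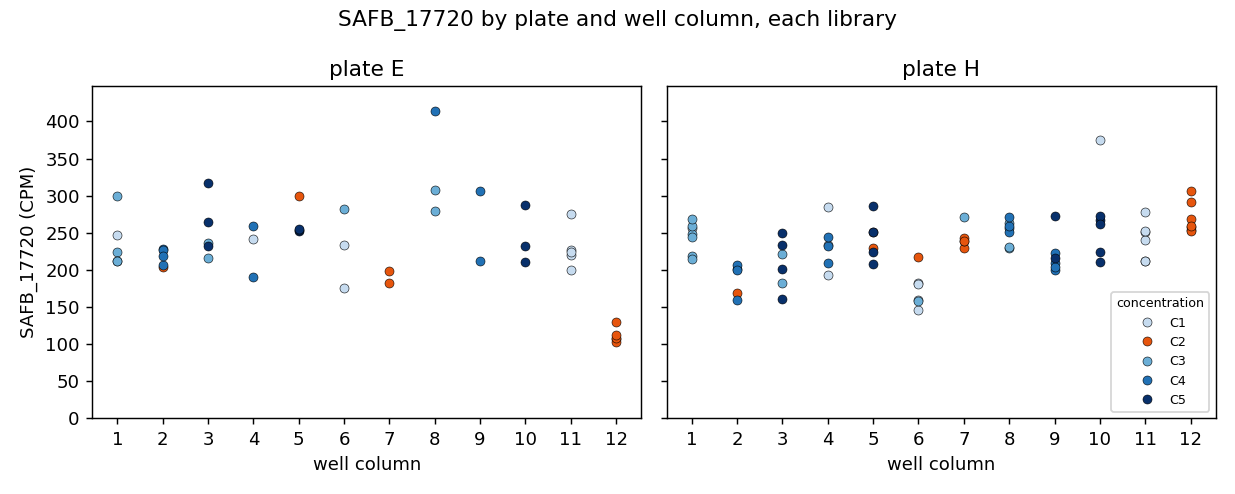
SAFB level (CPM) of each library against its well column on plate E (scriptaid, tacedinaline and vorinostat) and plate H (the other 5 chemicals), colored by concentration. The 5 libraries in column 12 of plate E, all at C2, sit at 102 to 130.0 CPM, below the other 40 libraries of that plate, while column 12 of plate H sits at 252 to 307 CPM.

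The wider machinery of RNA processing was read from 6 lists of 100 symbols, of which 96 were present in 128 rows: editing partners, paralogs of the comparators, tissue-restricted regulators, SR proteins, hnRNP and other broadly expressed regulators, and the core spliceosome. Over 740 tests at C5 in the 8 chemicals, 140 (18.9%) passed as falling and 41 (5.54%) as rising, beside 13.4% and 11.6% for all features. Scaling by library totals gave 109 falling and 52 rising, and that scaling moved the C5 changes of the listed rows by a median of -0.03 to 0.19, depending on the chemical. The calls came mostly from 6 chemicals. In scriptaid 31 of 93 rows tested fell and 4 rose, beside 17% and 12.8% of all its features. In vorinostat 29 of 88 fell and 13 rose, beside 24.9% and 22.7%. In tacedinaline 25 of 91 fell and 9 rose, beside 20.1% and 18.7%. In mocetinostat 20 of 91 fell and 10 rose, beside 15.7% and 14.8%. In apicidin 19 of 94 fell and 3 rose, beside 15% and 13.8%. In panobinostat 13 of 95 fell and 2 rose, beside 9.46% and 6.77%. Valproic acid had 3 of 94 falling and 0 rising by edgeR, beside 6.22% and 4.84%. Trichostatin A had 0 of 94 called in either direction by edgeR, beside 0.0154% falling and 0% rising. There, 1 row fell and 7 rose at an unadjusted p under 0.05, and 0 were called by DESeq2.

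Most editing partners and relatives of A1CF could not be tested, since only 2 to 3 rows of that list of 7 symbols were tested per chemical. Among its 23 tests, edgeR called 2 rising and 0 falling (2 falling at an unadjusted p under 0.05, and 1 by DESeq2 among 32 tests). Over all features, 11.6% rose and 13.4% fell. With so few rows, nothing is read from these counts about the partners. Both rising calls were for KHSRP, a KH-domain decay factor, in mocetinostat (log2 change 0.70) and tacedinaline (0.80). HNRNPR was not called in any chemical (-0.40 to 0.19). RBM46, a relative of A1CF, was tested in 7 chemicals and called in none by edgeR, with a median log2 change of -1.21, from -2.12 in tacedinaline to 1.53 in trichostatin A. APOBEC1, SYNCRIP and DND1 did not pass the filter. Of the paralogs, SLTM, a relative of SAFB, was called falling in 5 chemicals (median log2 change -0.76) and MBNL2 was called falling in vorinostat (-0.63, edgeR adjusted p = 0.000618), where MBNL1 itself was not called. In 42 tests of paralogs, 6 fell (14.3%) and 2 rose (4.76%), beside 13.4% and 11.6% over all features. The SAFB paralog SAFB2 was not called falling in any chemical, with log2 changes from 0.00 to 0.65.

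Among tissue-restricted regulators, 24 of 74 tests (32.4%) were called falling and 2 rising. The share was 14.2% with no filter, 21.9% in DESeq2 and 19.4% in the fit of all libraries, where more rows were tested; the share for SR proteins, 26.6% by the test used throughout, was then 28.9%, 29.7% and 28.1%. All but 1 of the falling calls came from 3 of the 20 symbols, namely MSI2 (2 rows, called in 6 and 5 chemicals), RBPMS (2 rows, called in 6 and 1) and RBPMS2 (called in 5). RBPMS and RBPMS2 are splicing regulators best known from muscle. The RBPMS row with the higher level went from group means of 31.2 to 42.1 CPM at C1 to 2.67 to 40.1 CPM at C5, and RBPMS2 from 35.7 to 54.3 CPM to 2.81 to 45.5 CPM. Median log2 changes over the chemicals were -1.68 for this RBPMS row and -1.97 for RBPMS2. The medians of the MSI2 rows, which encode a translational regulator of progenitor cells, were -1.33 and -1.11. Among SR proteins, 34 of 128 tests (26.6%) fell and 4 (3.1%) rose, beside 13.4% and 11.6% over all features. SRSF8, SRSF2 and 1 of 2 rows of SRSF7 were each called falling in 5 chemicals, with medians of -0.91, -0.85 and -0.80. The other SRSF7 row, tested in 8 chemicals, was not called in any by edgeR (median -0.02, from -1.24 to 0.50).

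Among hnRNP and other broad regulators, 60 of 279 tests fell (21.5%) and 10 rose (3.58%), beside 13.4% and 11.6% over all features. Of the 3 rows of RBM39, an SR-related splicing coactivator, 2 were called falling in 6 chemicals, with medians of -0.99 and -0.90. ELAVL1, which stabilizes AU-rich mRNAs, was called rising in 5 chemicals, with group means of 5.27 to 14.3 CPM at C1 and 17.1 to 35.3 CPM at C5. The core spliceosome was mixed, with 21 of 194 tests rising and 16 falling (28 and 14 with library totals). These shares, 10.8% rising and 8.25% falling, lay below the 11.6% and 13.4% of all features. The Sm proteins SNRPD3 and SNRPD2 were called rising in 6 and 5 chemicals (medians 0.94 and 0.84), and 1 row each of SF3B3 and U2AF2, which serve branch-point and polypyrimidine-tract recognition, were called falling in 6 (medians -1.44 and -1.24). SF3B3 had 3 rows, of which the others were called falling in 3 chemicals and in 1, and the other U2AF2 row was tested in 2 chemicals and not called.

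**Figure D5:**
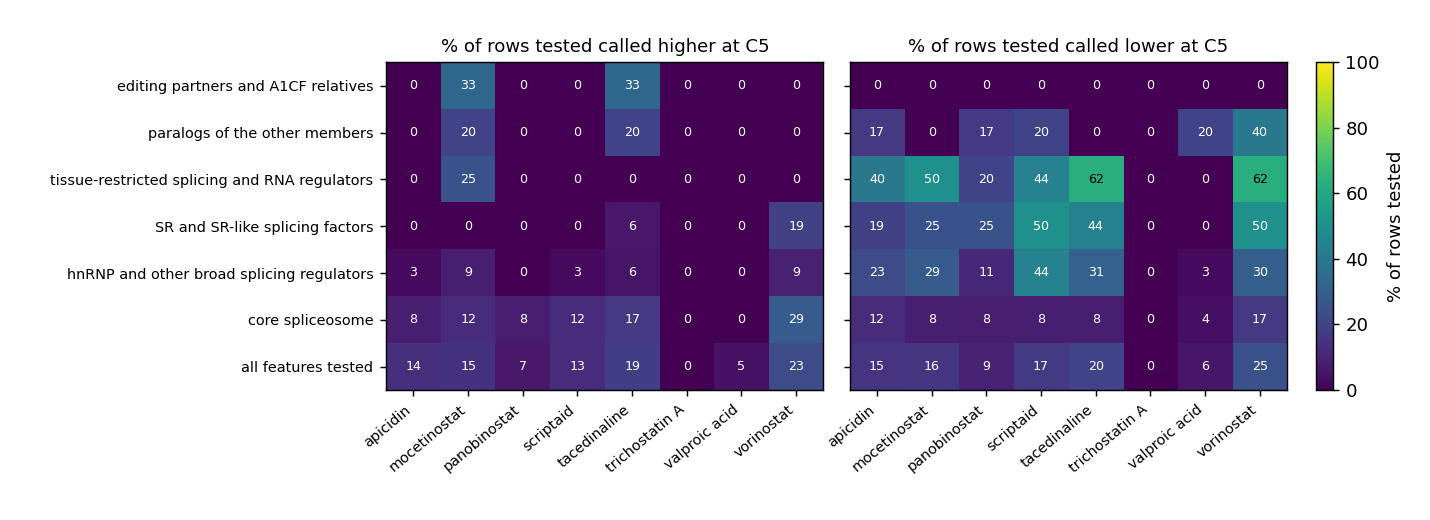
Percent of tested rows called higher (left) or lower (right) at C5 than at C1, by gene list (rows) and chemical (columns), with all features tested in the last row. The tissue-restricted list has the largest falling share in apicidin, mocetinostat, tacedinaline and vorinostat. The editing list has no falling call in any chemical, with only 2 to 3 rows tested in each.

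Markers of other cell types did not move in one direction. Over all features tested in the 8 chemicals, 11.6% of tests rose and 13.4% fell. Biliary and progenitor rows rose in 11 of 33 tests and fell in 0 by edgeR (0 falling also by DESeq2 and at an unadjusted p under 0.05), led by SPP1 and SOX9, each called rising in 5 chemicals (medians 1.27 and 1.06), and their summed level was 69.4 to 120 CPM at C1 and 89.0 to 212 CPM at C5 as group means. Epithelial rows rose in 2 and fell in 15 of 45 tests, with OCLN and CDH1 falling in 6 and 5 chemicals (medians -0.97 and -1.78). Their summed level was 439 to 772 CPM at C1 and 273 to 860 CPM at C5. Mesenchymal rows rose in 12 and fell in 35 of 104 tests: COL1A1 rose in 6 chemicals (median 1.63) and CDH2 in 5 (0.65), while 1 row of COL3A1 (-2.45) and ACTA2 (-1.52) fell in 7 and 1 of 3 rows of DCN in 6 (-1.35). Their summed level was 3673 to 5282 CPM at C1 and 1760 to 4039 CPM at C5, COL1A2 was at 0 in 99 libraries, and the part of these cell types in the member values was not tested.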

How the data were processed

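Differentiated HepaRG cells were profiled by whole-transcriptome TempO-Seq (118 libraries). The authors deposited raw counts per probe as whole numbers; per the labels, the submitters' processing notes name bcl2fastq 2.20.422, fastp 0.23.2, STAR 2.7.10b and DESeq2 1.38.0, and the genome build is not given in the sources used here. Of 22069 rows, 1 row without a value in every library was left out. Counts were read as deposited. Groups and batches came from the labels, and the members and lists were chosen with earlier results of these data known.

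For each chemical, all its libraries were fitted with edgeR 4.0.16 in R 4.3.3 (filterByExpr, TMM, quasi-likelihood F test), C2 to C5 each against C1, with Benjamini-Hochberg adjustment over all features; a call needed an adjusted p under 0.05 and a change of at least 1.5-fold. Levels are CPM on effective library sizes over all 118 libraries. The scripts were tested on simulated data. P-values measure the spread between 3 batches of one cell line. From the related lists, at most 3 rows in each direction were named, called the same way in at least 5 chemicals and ranked by that number and then by median change (1 row that met this rule is not reported here); KHSRP, HNRNPR, RBM46, MBNL2, SAFB2, KRT8, GRHL2, EPCAM and COL1A2 were named after their values were seen.

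Replicate numbers mark shared HepaRG batches per the labels, so they pair libraries. Deviations from the group means of C1 and C5 libraries of one batch correlated little (24 pairs, r from -0.17 to 0.14, median 0.02, 1 pair above 0.1). Alternatives were DESeq2 1.42.0, size factors by RLE, library totals, no filter, a replicate block, each replicate left out, the trichostatin A libraries or their C1 replicate 3 left out, all libraries in 1 fit and, added after seeing the data, the 7 libraries that stood apart left out and all alternatives for the lists. Promoter windows came from a RefSeq table. Python 3.11.15 with pandas 2.3.3 and matplotlib 3.10.9 made the tables and figures.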

Additional observations from a re-analysis of the deposited data

Results flagged for a closer look

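The C5 changes of MBNL1 differed among the 8 chemicals, with an edgeR adjusted p of 2.78e-05 in the fit of all 118 libraries. Its log2 change was between -1.22 and -1.05 in mocetinostat, scriptaid and tacedinaline, -0.39 in vorinostat and between -0.16 and 0.18 in the other 4 chemicals. The adjusted p was at most 0.0233 under the alternatives run, the highest without replicate 2. Among all features, 30.3% were called in the same test.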

How the results depend on the processing

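Counts of comparators called at C5 were the same under every alternative in apicidin, panobinostat, trichostatin A, valproic acid and vorinostat. In mocetinostat the count of 2 became 1 with RLE size factors, library totals, no filter, DESeq2, all libraries in 1 fit and without the libraries that stood apart, and 0 to 1 with a replicate left out. In scriptaid the 2 became 1 with library totals and 0 to 2 with a replicate left out, and in tacedinaline the 1 became 1 to 2 with a replicate left out. With a replicate block, the paired fit, the counts were 2 in mocetinostat, 2 in scriptaid and 1 in tacedinaline, and no other call of a comparator changed. Over C2 to C4 the 1 call became 3 with no filter and 3 without the libraries that stood apart, and 0 to 3 with a replicate left out; leaving out replicate 3 of mocetinostat C2, one of those libraries, brought MBNL1 (log2 change -1.05) and QKI (-3.49) past the threshold there. The comparators whose C5 changes differed among chemicals went from 1 to 2 without the libraries that stood apart, QKI joining MBNL1. Rising calls of the 6 lists, 41, became 22 to 33 with a replicate left out, and falling calls, 140, became 95 to 132. A called direction was not reversed under any alternative. Low counts limit what can be said of RBM47, ESRP1, ESRP2 and CELF2 in all libraries and of A1CF at C5 of 3 chemicals. The causes of these differences were not tested.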
